A study of Mus musculus with 2 samples.

Results

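The 8 genes described here, Bcl2, Mcl1, Bcl2l1, Bcl2a1b, Bax, Bak1, Bcl2l11 and Bid, belong to the BCL2 family and were chosen by symbol from the 27998 genes of the count matrix. The matrix comes from droplet single-cell RNA sequencing of mouse acute myeloid leukemia driven by MLL-AF9, a fusion oncogene delivered by retrovirus. The study compared leukemias that arose from Kat2a WT and Kat2a KO bone marrow, Kat2a being a histone acetyl-transferase. All donor mice carried Kat2a Flox/Flox and received pIpC, and they differed in Mx1-Cre, which was -/- in WT and +/- in KO, so that pIpC excised the locus only in KO donors. Marrow was taken 4 to 6 weeks later, lineage-depleted, transduced and transplanted into lethally irradiated recipients. Terminal marrow from 5 WT and 4 KO primary leukemias was frozen, thawed and pooled by genotype, and live single YFP+ cells, which report the fusion, were sorted. Each genotype is therefore 1 library of pooled animals, whose cells cannot be traced back to an animal.

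BCL2 family proteins decide at the outer mitochondrial membrane whether a cell undergoes intrinsic apoptosis. The pro-survival proteins Bcl2, Mcl1, Bcl-xL (the product of Bcl2l1) and A1 (Bcl2a1b) hold the effectors Bax and Bak in check, and BH3-only proteins such as Bim (Bcl2l11) and Bid carry the death signal to them. When Bax or Bak forms pores, cytochrome c escapes and caspases are activated. In myeloid cells Mcl1 is known as a survival factor of neutrophils and of leukemic progenitors, Bcl2 is characteristic of immature cells, and A1 is known from granulocytes, where it is induced by inflammatory signals.

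With 1 library per genotype there was no replicate check and no test between genotypes was made. Values below are UMI counts, one per captured mRNA molecule, summed over cells and given per 1000000 UMIs (CPM), with 95% exact Poisson intervals for levels and exact conditional binomial intervals for log2 ratios. These intervals cover counting error only, not the spread between animals or libraries. Cells in which at least 500 genes were detected entered the analysis, 3866 of 4069 in the WT-labelled library and 3545 of 4240 in the KO-labelled library, with median depths of 2588.5 and 1884 UMIs. Which library is KO was taken from the number ending each barcode (1 as KO, 2 as WT). This follows the study's analysis code and is not in the sample labels. Kat2a itself went against this assignment, at 12.2 CPM in the WT-labelled library and 95.8 CPM in the KO-labelled library. The excised allele keeps the last exon, which the 3' tags read, so Kat2a counts do not check the assignment. The direction of every ratio between libraries depends on it, and "labelled" means assigned in this way throughout. Markers of erythroid cells (such as Hba-a1, Hbb-bs, Klf1 and Car1) summed to 126 and 346 CPM and those of megakaryocytes (Pf4, Ppbp, Itga2b) to 9.08 and 105 CPM, WT first. Both lists were thus more abundant in the KO-labelled library, with Car1 at 0 in the WT-labelled library. Markers of basophils and mast cells summed to 88.4 and 180 CPM, of eosinophils to 62.3 and 33.7 CPM, of B cells to 53.9 and 77.9 CPM, of T and NK cells to 1.11 and 1.14 CPM, and the plasmacytoid marker Siglech was at 0.0857 and 0.631 CPM. The libraries shared 28 barcodes.

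Across all kept cells the 8 members stood in the same order of abundance in both libraries, except that the neighbours Mcl1 and Bak1, and Bcl2 and Bcl2l1, changed places. Counts at transcript 3' ends do not scale with transcript length, so CPM can be set side by side between genes. Bcl2a1b is a partial exception, since reads that also match its near-identical copies may be missing from its count. Bax was the most abundant member and Bcl2l11 the least. Only Bcl2 was past 1.5-fold between the libraries, 1 of 8 members, where 18.6% of the 9307 genes with 50 or more UMIs were past 1.5-fold in either direction and 6.79% were past it as higher in the KO-labelled library. The interval of the log2 ratio included 0 for 6 of the 8 members, the exceptions being Bcl2 and Bax. The median log2 ratio (KO over WT) was 0.035 over the members and −0.014 over all genes tested.

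**Figure D1:**
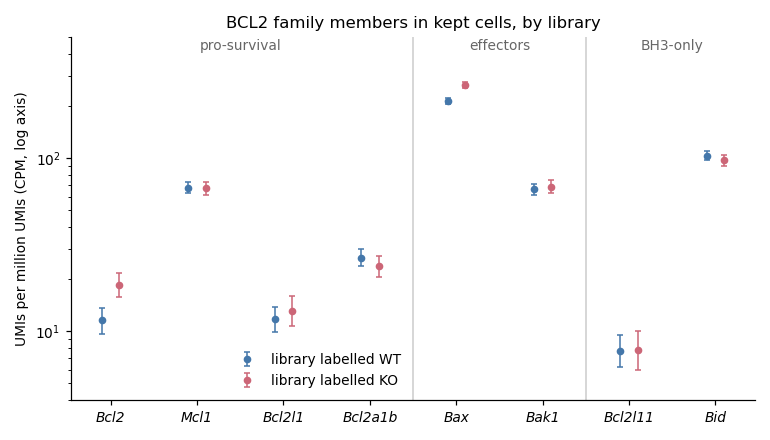
Level of each BCL2 family gene in kept cells (CPM, log axis) in the WT-labelled library (blue) and the KO-labelled library (red), with 95% exact Poisson intervals. Bax is highest at 215 and 264 CPM, and Bcl2 and Bax are the members whose intervals do not overlap between the libraries.

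Bcl2, the founding pro-survival gene (chromosome 1, 106538178 to 106714274, minus strand, GRCm38), was counted 135 times in the WT-labelled library and 147 times in the KO-labelled library. These counts correspond to 11.6 CPM (9.70 to 13.7) and 18.6 CPM (15.7 to 21.8). The library labelled KO was the higher one by 0.68 on the log2 scale (0.33 to 1.03), a ratio of 1.60, and by 0.74 after every cell was thinned to 1000 UMIs. It fell under 1.5-fold, still higher in the KO-labelled library, at 0.54 in cells matched on total UMIs, 0.56 without the 5% of cells with the most UMIs, 0.57 with the same state weights in both libraries and 0.49 without cells with markers of other cell types. Few cells carried the transcript, 116 of 3866 kept cells labelled WT and 112 of 3545 labelled KO. The last exon of Bcl2 overlaps D630008O14Rik on the opposite strand.

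Mcl1 (chromosome 3, 95658788 to 95663176, plus strand) was the most abundant pro-survival member and supplied 57.5% and 54.8% of the pro-survival UMIs, WT first. It stood at 67.7 CPM (63.1 to 72.6) in the WT-labelled library and at 67.2 CPM (61.6 to 73.1) in the KO-labelled library. The log2 ratio was −0.01, with an interval from −0.17 to 0.15 that leaves room for a difference of that size in either direction. Bcl2l1 (chromosome 2, 152780668 to 152831728, minus strand), which encodes Bcl-xL, a pro-survival protein important in erythroid and megakaryocytic cells, was scarce at 11.7 and 13.1 CPM. Its log2 ratio was 0.16, with an interval from −0.22 to 0.54.

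Bcl2a1b (chromosome 9, 89199209 to 89207827, plus strand) encodes one of the near-identical mouse A1 proteins, so its counts depend on how reads that match several copies were handled. It was counted 311 times at 26.7 CPM in the WT-labelled library and 188 times at 23.7 CPM in the KO-labelled library, a log2 ratio of −0.17 (−0.44 to 0.10). The coding sequences of Bcl2a1a, Bcl2a1b and Bcl2a1d are 516 bases long, and Bcl2a1b differs from Bcl2a1a at 11 and from Bcl2a1d at 6 of them. The coding part of the last exon, which lies close to the 3' end that these libraries read, is shown to make clear how little separates the copies. It is 96 bases long, read from GENCODE transcripts, and the capital marks the single position at which the 3 copies are not all alike. The copies lie on GRCm38 at chr9:88962172-88962267 (Bcl2a1a, plus strand), chr9:89207582-89207677 (Bcl2a1b, plus strand) and chr9:88723437-88723532 (Bcl2a1d, minus strand).
Bcl2a1a: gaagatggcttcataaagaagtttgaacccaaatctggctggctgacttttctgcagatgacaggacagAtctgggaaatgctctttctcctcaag
Bcl2a1b: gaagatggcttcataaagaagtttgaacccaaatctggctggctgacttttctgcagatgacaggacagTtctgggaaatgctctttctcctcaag
Bcl2a1d: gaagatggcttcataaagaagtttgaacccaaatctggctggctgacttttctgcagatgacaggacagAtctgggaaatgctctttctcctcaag

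Bcl2a1a and Bcl2a1d are identical over this stretch. In the counts, Bcl2a1a was at 9.17 CPM in the WT-labelled library and 5.43 CPM in the KO-labelled library, a log2 ratio of −0.76. Bcl2a1d went the other way, from 3.17 to 11.5 CPM, a log2 ratio of 1.86. The sum of the 3 copies was 39.0 CPM (35.5 to 42.7) and 40.7 CPM (36.3 to 45.3), which gave a log2 ratio of 0.06 (−0.15 to 0.27). Bcl2a1b made up 68.4% of that sum in the WT-labelled library and 58.4% in the KO-labelled library, and the share of Bcl2a1d was 8.13% and 28.3%. The sum of the counted reads thus had a ratio nearer to 0 than any of the 3 copies, and whether the shares reflect transcripts or the assignment of reads was not tested. Of the 50-base windows of the Bcl2a1a transcript, 41.0% also occur in Bcl2a1b and 67.7% in Bcl2a1d. Of those of Bcl2a1b, 57.6% occur in Bcl2a1d. Whether reads from such shared stretches were counted was not examined, so the sum may fall short of all A1 transcripts.

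Among the effectors, Bax (chromosome 7, 45461697 to 45466898, minus strand) was counted 2507 times in the WT-labelled library and 2094 times in the KO-labelled library. Its level was 215 CPM (207 to 223) and 264 CPM (253 to 276), and the log2 ratio was 0.30 (0.22 to 0.38). This is a ratio of 1.23, under the 1.5-fold used for calls, with an interval above 0. Bak1 (chromosome 17, 27019810 to 27029009, minus strand), the second effector, stood at 66.2 CPM (61.6 to 71.0) and 68.4 CPM (62.8 to 74.4). Its log2 ratio was 0.05 (−0.11 to 0.21), and 0.27 after thinning, with an interval of −0.01 to 0.54. Bak1 transcripts were thus about as abundant as Mcl1 transcripts in each library, and Bax transcripts were more abundant than those of any other member.

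Of the BH3-only genes, Bid (chromosome 6, 120891930 to 120916853, minus strand), whose product is cleaved by caspase-8 to link death receptors to mitochondria, was the second most abundant member. It stood at 104 CPM (97.8 to 110) in the WT-labelled library and 97.5 CPM (90.7 to 105) in the KO-labelled library, a log2 ratio of −0.09 (−0.22 to 0.04). Its last exon overlaps Bcl2l13 on the opposite strand. Bcl2l11 (chromosome 2, 128126038 to 128162547, plus strand), which encodes Bim, was counted only 90 and 62 times. At 7.71 and 7.83 CPM it gave a log2 ratio of 0.02 with an interval from −0.47 to 0.50, and differences within that interval were not detectable at this depth.

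Summed by role, the 4 pro-survival members came to 118 and 123 CPM, a log2 ratio of 0.06 (−0.06 to 0.18). The 4 pro-apoptotic members came to 392 and 438 CPM, a log2 ratio of 0.16 (0.10 to 0.22). Without Bax the pro-apoptotic ratio was −0.03 (−0.13 to 0.07), so the difference in the sum was carried by Bax, which supplied 54.8% and 60.3% of these UMIs.

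Because the KO-labelled library was shallower, the ratios were also taken between equal numbers of cells matched on total UMIs, 2782 per library, and between 2482 cells per library matched on total UMIs within each maturation state. Matching moved the background as well, since 26.1% and 23.5% of tested genes were then past 1.5-fold. Bcl2 stayed above 0 at 0.54 and 0.90, and Bax at 0.34 and 0.44. Mcl1 moved from −0.01 to −0.49 (−0.68 to −0.30) in matched cells and to −0.14 (−0.34 to 0.06) in cells matched within state. For Mcl1 the size of the ratio therefore depended on which cells were compared, whereas the KO-labelled library was the higher one for Bcl2 and Bax under each of these choices.

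**Figure D2:**
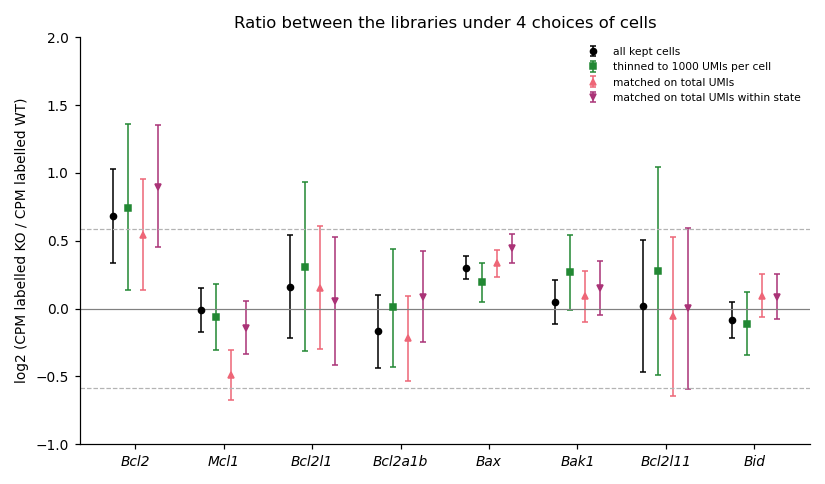
Log2 ratio of CPM (KO-labelled over WT-labelled library) of each BCL2 family gene in all kept cells, after thinning to 1000 UMIs per cell, and in cells matched on total UMIs overall or within state, with 95% exact conditional binomial intervals. Dashed lines mark 1.5-fold. Mcl1 sits at −0.01 in all kept cells and at −0.49 in matched cells, and Bax lies above 0 in all 4 choices.

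The dependence of Mcl1 on depth was followed in 10 bins of kept cells ranked by total UMIs. In the WT-labelled library, Mcl1 was at 158 CPM in the bin of the shallowest cells (775 to 1205 UMIs) and at 37.1 CPM in the deepest (4728 to 11944 UMIs), a 4.26-fold difference. In the KO-labelled library the same bins held 135 and 27.1 CPM, a 4.97-fold difference. Cells with fewer UMIs thus had more Mcl1 per UMI in both libraries, and the first bin held 227 cells labelled WT and 514 labelled KO. Within bins Mcl1 was lower in the KO-labelled library in 9 of 10, with an interval below 0 in 3 of them. Bax showed no such gradient, with 225 CPM in the shallowest and 244 CPM in the deepest bin of the WT-labelled library. It was higher in the KO-labelled library in 10 of 10 bins, with an interval above 0 in 6 of them, and stood at 378 CPM in the deepest bin of that library. Bcl2 was higher in the KO-labelled library in 8 of 10 bins, and the interval was above 0 in the deepest bin alone, with 13.3 CPM (9.67 to 17.7) against 35 CPM (25 to 47.7). The bins mix maturation states, which differ in depth. When each of the 6 states was split by total UMIs, Mcl1 fell at every step of depth in 1 state (WT-labelled library) and in 4 (KO-labelled library). The deepest group nevertheless stood below the shallowest in every state of both libraries. The values were 34.2 against 69.7 CPM in primary-granule cells labelled WT, and 250 against 272 CPM in Apoe-high cells labelled KO. Mcl1 was lower in the KO-labelled library in 11 of the 18 groups so made, with an interval below 0 in 3 and above 0 in 1.

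**Figure D3:**
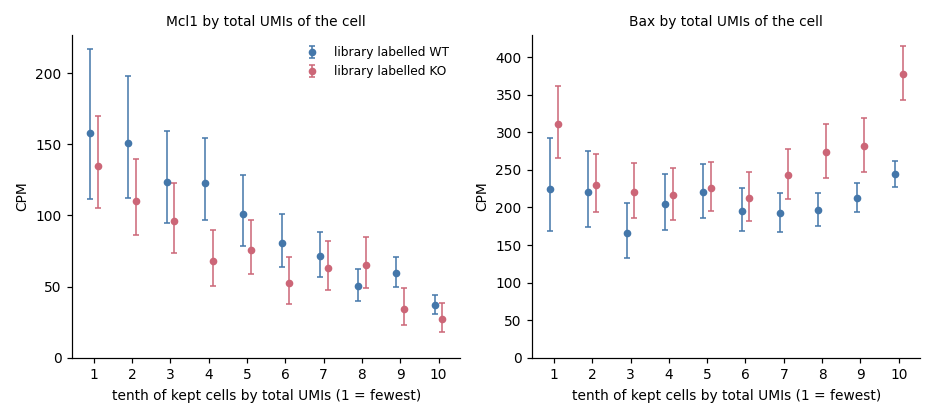
Level (CPM) of Mcl1, left, and Bax, right, in 10 bins of kept cells ranked by total UMIs, from fewest to most, in the WT-labelled (blue) and KO-labelled (red) libraries, with 95% exact Poisson intervals. Mcl1 declines from 158 to 37.1 CPM in the WT-labelled library and from 135 to 27.1 CPM in the KO-labelled library, and Bax does not decline.

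Cells were next placed in 6 maturation states by the percent of their UMIs that came from raw counts of marker genes, none of which is a member. Primary-granule cells (918 WT, 761 KO) carry the azurophil granule genes Mpo, Elane, Prtn3 and Ctsg of promyelocytes and the progenitor gene Ms4a3, and secondary-granule cells (1454, 1452) carry Camp, Ngp, Ltf, Lcn2 and Cd177. Late-granulocyte cells (312, 116) were set by a list of 7 mature neutrophil genes that includes Retnlg, Mmp8 and Cxcr2. The most abundant gene of that list, whose value is not reported here, was almost as high in Apoe-high cells. Monocyte-marker cells (480, 436) carry genes such as Irf8, Csf1r and Ly86. In late-granulocyte cells the monocyte genes summed to 1027 and 1044 CPM, WT first. Apoe-high cells (193, 126) were set by a list of 6 macrophage genes that includes Apoe and Adgre1. Over both libraries Apoe stood at 10334 CPM and Adgre1 at 242 CPM in them. The monocyte genes summed to 3435 and 3151 CPM in Apoe-high cells and to 3214 and 3454 CPM in monocyte-marker cells, WT first. Cells past the cut-offs of both lists were placed as Apoe-high. Low-marker cells (509, 654) passed none of the cut-offs. These states are ranges on a scale, not cell types, and 22.5% of kept cells lay within 20% of a cut-off.

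Over the 48 pairs of member and state, 7 were past 2-fold against the other cells of the library, in the same direction in both libraries. The background was 11.6% of all gene and state pairs, so the members' count lay near it. Bcl2 was lower in secondary-granule cells and higher in monocyte-marker and low-marker cells, Mcl1 was higher in late-granulocyte and Apoe-high cells, Bcl2a1b was lower in monocyte-marker cells, and Bid was lower in secondary-granule cells. Bcl2l1, Bax, Bak1 and Bcl2l11 had no such pair.

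**Figure D4:**
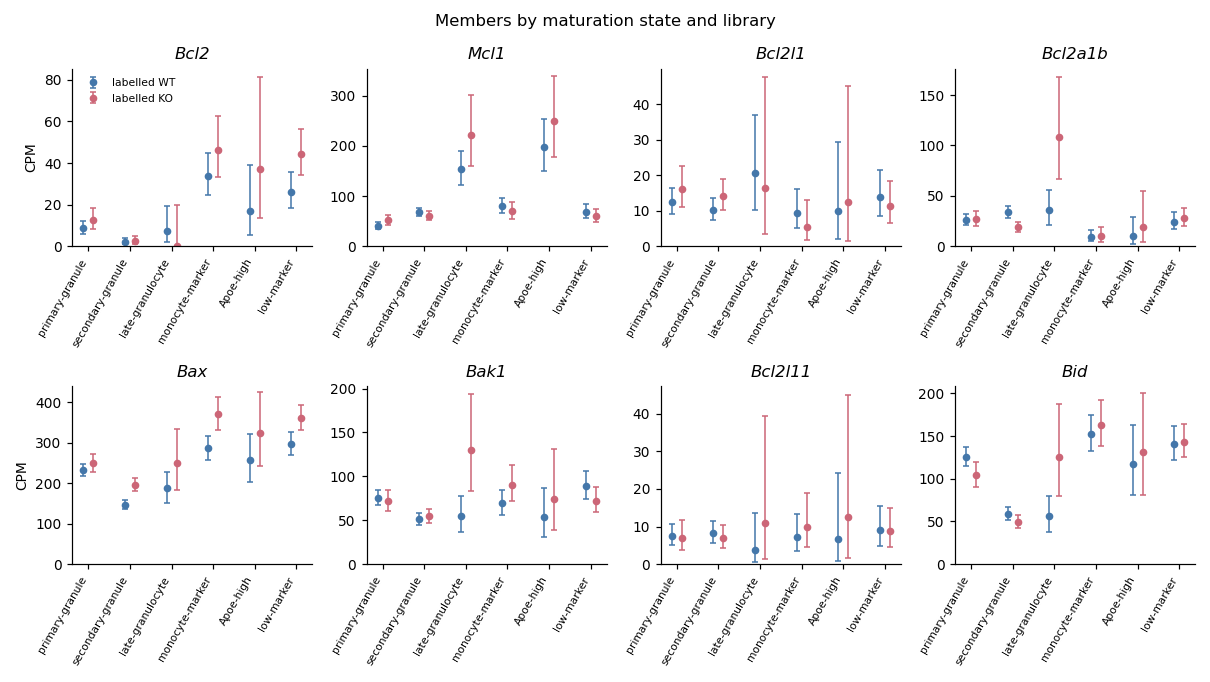
Level (CPM) of each BCL2 family gene in the 6 maturation states of the WT-labelled (blue) and KO-labelled (red) libraries, with 95% exact Poisson intervals; the vertical scale differs between panels. Bcl2 is lowest in the granulocytic states, and Mcl1 is highest in late-granulocyte and Apoe-high cells of both libraries.

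Bcl2 had the widest range over states. It was at 2.17 CPM (0.99 to 4.12, 9 UMIs in 1454 cells) in secondary-granule cells of the WT-labelled library and at 2.51 CPM (1.09 to 4.95, 8 UMIs in 1452 cells) in those of the KO-labelled library. Against the other cells of the library this was a log2 ratio of −2.95 and −3.54, where 10.7% of tested genes were past 2-fold as lower in this state. In primary-granule cells Bcl2 stood at 8.74 and 12.5 CPM, and in late-granulocyte cells at 7.49 CPM from 4 UMIs in the WT-labelled library and at 0 UMIs in 116 cells of the KO-labelled library, where 3 UMIs, the limit taken for a count of 0, would be 16.3 CPM. It was highest in monocyte-marker cells, at 33.6 and 46.4 CPM (log2 ratios of 1.96 and 1.63), and in low-marker cells, at 25.9 and 44.2 CPM (1.43 and 1.81). Only 4.1% and 1.88% of tested genes were past 2-fold as higher in those states. The difference in monocyte-marker cells depended on the marker cut-offs, and with cut-offs doubled its log2 ratios were 0.20 and 0.56, under 2-fold. In the WT-labelled library no neighbouring levels in the order of states had separate intervals. In terms of cells, 7.92% and 6.88% of monocyte-marker cells had a Bcl2 UMI, against 0.619% and 0.551% of secondary-granule cells, at median depths of 2477.5 and 1661.5 UMIs in the former and 2521.5 and 1969 UMIs in the latter. The state with the fewest Bcl2-positive cells was thus the deeper of the pair.

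Low-marker cells also included cells with markers of other lineages. Of the low-marker cells, 9.63% of those labelled WT (49 cells) and 16.5% of those labelled KO (108 cells) had 3 or more UMIs of B, T and NK, erythroid, megakaryocyte, basophil and mast, eosinophil or plasmacytoid markers. Bcl2 was at 38.6 CPM (16.7 to 76.0) and 67.6 CPM (46.2 to 95.4) in them, and at 23.7 CPM (15.9 to 34.0) and 33.4 CPM (23.1 to 46.7) in the other low-marker cells. Without the 118 and 174 kept cells that had such markers, no member was past 1.5-fold between the libraries, and the log2 ratio of Bcl2 was 0.49 (0.09 to 0.88).

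Mcl1 followed the same order of states in both libraries, from primary-granule through secondary-granule, low-marker and monocyte-marker to late-granulocyte and Apoe-high cells. Only 2 of 5 neighbouring pairs in the WT-labelled library and 1 of 5 in the KO-labelled library had separate intervals, so the order of the other pairs is not settled. Primary-granule cells stood at 41.2 CPM (35.0 to 48.0) and 52.1 CPM (42.6 to 63.1). Late-granulocyte cells stood at 153 CPM (122 to 190) and 223 CPM (160 to 302), and Apoe-high cells at 197 CPM (150 to 255) and 249 CPM (178 to 339). These were log2 ratios of 1.27 and 1.81 over the other cells in late-granulocyte cells, and of 1.62 and 1.97 in Apoe-high cells, where 4.23% and 7.65% of tested genes were past 2-fold as higher. The intervals of late-granulocyte and Apoe-high cells overlapped in each library, so their order is not settled, whereas those of monocyte-marker cells (80.3 and 69.6 CPM) lay below both. These are also the shallowest states, with median depths of 1556.5 and 1362.5 UMIs in late-granulocyte cells and 1395 and 1185 UMIs in Apoe-high cells. When each state was split by total UMIs, late-granulocyte cells of 1312 to 1753 UMIs held 197 and 225 CPM and secondary-granule cells of 874 to 1852 UMIs held 77.5 and 84.0 CPM. In the WT-labelled library late-granulocyte cells of 1765 to 5362 UMIs held 114 CPM and monocyte-marker cells of 1603 to 2626 UMIs held 113 CPM. The part of depth in the differences between states was otherwise not tested. Within Apoe-high cells of 1000 or more genes, only 22 cells remained in the WT-labelled library and 4 in the KO-labelled library, with 1 Mcl1 UMI in each.

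Bcl2l1 ranged from 9.49 to 20.6 CPM over the states of the WT-labelled library and from 5.52 to 16.3 CPM over those of the KO-labelled library, and neighbouring intervals overlapped throughout. Bcl2a1b was lowest in monocyte-marker cells, at 9.49 CPM (5.05 to 16.2) and 9.94 CPM (4.54 to 18.9), which were log2 ratios of −1.61 and −1.36 in a state where 3.35% of tested genes were past 2-fold as lower. It was highest in late-granulocyte cells, at 35.6 CPM (21.4 to 55.5) from 19 UMIs and 109 CPM (66.4 to 168) from 20 UMIs. In the WT-labelled library that interval overlapped the one of secondary-granule cells (28.2 to 39.6), so their order is not settled. In the KO-labelled library 1 cell held 8 of the 20 UMIs, and the level without it was 66.5 CPM. With the marker cut-offs doubled the ratios in monocyte-marker cells were −1.45 and −0.64, so that the KO-labelled library was under 2-fold.

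Bax varied less. It was lowest in secondary-granule cells, at 147 CPM (135 to 159) and 196 CPM (181 to 212), and highest in low-marker cells of the WT-labelled library, at 298 CPM (270 to 327), and in monocyte-marker cells of the KO-labelled library, at 371 CPM (332 to 413). The highest state exceeded the lowest 2.03-fold in the WT-labelled library and 1.89-fold in the KO-labelled library. Bak1 was also lowest in secondary-granule cells, at 51.1 and 54.4 CPM, and no neighbouring states had separate intervals in either library. Bid was lower in secondary-granule cells, at 58.8 CPM (51.7 to 66.7) and 49.7 CPM (42.2 to 58.0), log2 ratios of −1.12 and −1.38 over the other cells. It was highest in monocyte-marker cells, at 153 CPM (133 to 175) and 163 CPM (138 to 192). Bcl2l11 stayed between 3.74 and 12.5 CPM in every state, with overlapping intervals. Of the 8 members, 2 (Bcl2 and Bid) were thus past 2-fold as lower in secondary-granule cells, the largest state, in which 10.7% of tested genes were past 2-fold as lower and 12.5% in either direction.

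Within states, the ratio between libraries was taken for each member. Bax was higher in the KO-labelled library in 6 of 6 states, and its interval was above 0 in secondary-granule cells (0.42, from 0.25 to 0.58), monocyte-marker cells (0.37, from 0.16 to 0.59) and low-marker cells (0.28, from 0.09 to 0.46). Bcl2 was higher in the KO-labelled library in 5 of 6 states, and its interval was above 0 in low-marker cells alone (0.78, from 0.17 to 1.40). Mcl1 was higher in 3 states and lower in 3, with every interval including 0, and the same held for Bcl2l1 and Bcl2l11. Bcl2a1b was lower in the KO-labelled library in secondary-granule cells, at 33.5 CPM (28.2 to 39.6) against 18.9 CPM (14.4 to 24.3), and higher in late-granulocyte cells, with log2 ratios of −0.83 and 1.61. Bak1 had an interval above 0 in late-granulocyte cells, with a log2 ratio of 1.27. That value rested on 1 cell of the KO-labelled library, which held 16 of the 24 Bak1 UMIs of the state among its 1142 UMIs, and leaving out the highest cell of each library turned the ratio to −0.21 (−1.56 to 0.96). Bid was lower in primary-granule cells of the KO-labelled library, with a log2 ratio of −0.27 (−0.51 to −0.03), and 1 cell of the KO-labelled library held 24 of its 208 UMIs there. Without the highest cell of each library the Bid ratio was −0.43 (−0.68 to −0.18) in primary-granule cells.

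The balance of roles was expressed as pro-survival UMIs per pro-apoptotic UMI, a count ratio of mRNA that says nothing of protein. Over all kept cells it was 0.30 (0.282 to 0.319) in the WT-labelled library and 0.280 (0.260 to 0.301) in the KO-labelled library. It was lowest in primary-granule cells of the WT-labelled library at 0.201 and in monocyte-marker cells of the KO-labelled library at 0.207, and highest in late-granulocyte cells at 0.720 (0.563 to 0.920) and 0.674 (0.483 to 0.935). Apoe-high cells came next, at 0.538 and 0.586, and Mcl1 supplied 84.3% and 78.4% of their pro-survival UMIs. In late-granulocyte cells the share of Mcl1 was 70.7% and 64.1%. The libraries had separate intervals in secondary-granule cells, at 0.428 (0.383 to 0.477) in the WT-labelled library and 0.313 (0.275 to 0.356) in the KO-labelled library, where Bcl2a1b was the lower and Bax the higher in the KO-labelled library. In low-marker cells the ratio was 0.249 and 0.247, with Bcl2 and Bax both the higher in the KO-labelled library.

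**Figure D5:**
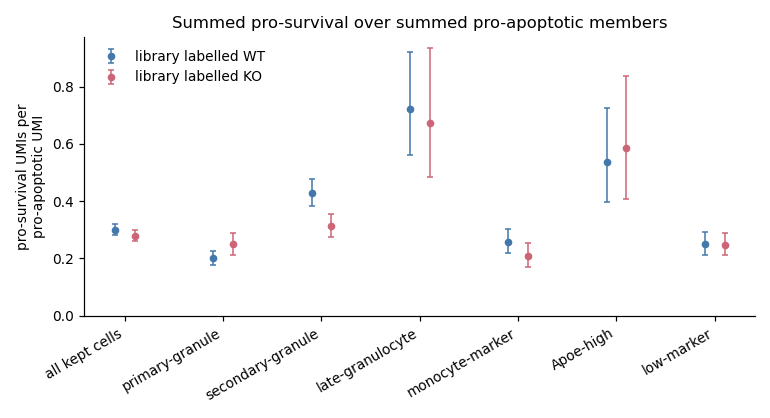
Pro-survival UMIs (Bcl2, Mcl1, Bcl2l1, Bcl2a1b) per pro-apoptotic UMI (Bax, Bak1, Bcl2l11, Bid) in all kept cells and in each maturation state of the WT-labelled (blue) and KO-labelled (red) libraries, with 95% intervals from counting error. Late-granulocyte cells are highest, at 0.720 and 0.674, and secondary-granule cells are the state with separate intervals, at 0.428 and 0.313.

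Cells were also split by cell cycle, since 31.9% and 33.4% of primary-granule and 34.9% and 43.8% of secondary-granule cells had 0.2% or more of their UMIs in S and G2/M genes such as Mcm2, Pcna, Top2a and Mki67. Mcl1 was lower in the cycling cells in each library and state. In primary-granule cells the log2 ratio of cycling over other cells was −0.70 (−1.24 to −0.19) in the WT-labelled library and −1.14 (−1.85 to −0.48) in the KO-labelled library. In secondary-granule cells it was −0.92 (−1.32 to −0.54) and −0.40 (−0.83 to 0.03). Bax was higher in cycling primary-granule cells by 0.26 and 0.35 and in cycling secondary-granule cells of the WT-labelled library by 0.31, but not in those of the KO-labelled library, at −0.23 (−0.46 to 0.01). Cycling cells were the deeper ones, with medians of 4814 against 3602 UMIs in primary-granule cells of the WT-labelled library, and the part of depth in the Mcl1 difference was not tested.

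Cell-to-cell spread was measured as the Fano factor, the variance over the mean of UMIs per cell, after thinning to 1000 UMIs, at which a Poisson count gives a value near 1. It was higher in the KO-labelled library for 7 of 8 members, where this held for 67.3% of all 9305 genes with a value in both libraries. Bak1 had the widest gap, 1.02 in the WT-labelled library against 1.91 in the KO-labelled library, and without the highest cell of each library it stood at 1.01 and 1.12. Bid likewise went from 1.13 and 1.43 to 1.11 and 1.11. Bax was at 1.24 and 1.43, and at 1.21 and 1.25 without the highest cell, and Bcl2l11 kept the widest gap then, at 0.993 and 1.34. Bcl2l11 had only 30 and 32 UMIs after thinning, in 3800 and 3351 cells, so a few cells can set its value. Leaving out 1 cell per library thus narrowed the gaps of Bak1 and Bid, while the KO-labelled value was then the higher one for 8 of 8 members and for 69.3% of 9299 genes.

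The other members of the family were taken as a list of 18 genes, of which 10 had 50 or more UMIs. Of those 10, 3 were past 1.5-fold as higher and 2 as lower in the KO-labelled library, where 6.79% of all tested genes were past it as higher and 11.8% as lower. Pmaip1, which encodes the BH3-only protein Noxa, an antagonist of Mcl1, was at 130 CPM in the WT-labelled library and 226 CPM in the KO-labelled library, a log2 ratio of 0.80 (0.70 to 0.90). It was higher in the KO-labelled library in every state, for example at 109 against 266 CPM in late-granulocyte cells, 101 against 205 CPM in secondary-granule cells and 179 against 233 CPM in low-marker cells. Bik, another BH3-only gene, had 23 and 33 UMIs (log2 ratio of 1.08, from 0.27 to 1.91), and Bnip3, a mitophagy receptor, was lower at 68.6 and 44.4 CPM (−0.63, from −0.81 to −0.44). The other pair was Bcl2a1a and Bcl2a1d, described above. Bcl2l10 and Hrk had no UMI in either library.

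Of the 26 downstream and regulatory genes, all with 50 or more UMIs, 3 were past 1.5-fold and all were lower in the KO-labelled library, or 11.5% of the list where 11.8% of all tested genes were past it as lower. Apaf1, the scaffold on which cytochrome c activates caspase-9, was at 14.6 and 8.08 CPM (log2 ratio of −0.85, from −1.29 to −0.43), and Xiap, a caspase inhibitor, was at 18.3 and 8.33 CPM (−1.14, from −1.56 to −0.73). The median log2 ratio was 0.09 over this list and 0.03 over the tested genes of the other family list.

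Finally, the genes whose pattern over the 6 states of both libraries was most like that of a member were listed for the 4 members with 500 or more UMIs in kept cells, by Pearson correlation of log2(CPM + 10) over 12 points among 2736 genes. The points share libraries and depth, so the values are a description. Mcl1 was most like Cd14 (0.98), Rap1b (0.97) and Klf2 (0.97). Bax was most like Psmb8 (0.96), Morf4l1 (0.96) and Zfp706 (0.96), and Bid like Mgat2 (0.95), Lrpap1 (0.95) and Glipr1 (0.94). The highest values for Bak1 were lower, with Urod at 0.84, Psme2b at 0.81 and Emc6 at 0.81. Of its 12 points, the one for late-granulocyte cells labelled KO stood at 130 CPM and rested on 1 cell with 16 of 24 UMIs. Without that cell the level was 43.8 CPM, and the correlations without it were not examined. Cd14 encodes a myeloid co-receptor for lipopolysaccharide and Psmb8 a subunit of the immunoproteasome.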

How the data were processed

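Live YFP+ bone marrow cells were profiled with a 10x Genomics 3' kit. The authors deposited UMI counts per gene and cell, both libraries in 1 matrix, made with Cell Ranger 1.3.1 on mm10 per the submitters' processing notes. The number ending each barcode gave the library (1 as KO, 2 as WT), which follows the study's analysis code and is not in the labels. The libraries shared 28 barcodes, 19 of them among kept cells. Kept cells (500 or more genes) totalled 11669427 UMIs labelled WT and 7920256 labelled KO. No doublet caller was run, and leaving out the 5% of cells with the most UMIs was an alternative.

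UMIs were summed over cells and scaled to 1000000. Intervals are 95% exact Poisson (levels), Clopper-Pearson (shares) or exact conditional binomial (ratios). Genes with 50 or more UMIs were compared, at 1.5-fold between libraries and at 2-fold in both libraries between states. Thinning to 1000 UMIs left out 66 cells labelled WT and 194 labelled KO. States required 3 marker UMIs and 1% (primary granule), 0.2% (monocyte), 3% (secondary granule), 0.3% (mature neutrophil) or 0.5% (macrophage list) of UMIs, a later state in this order taking precedence. Positions come from GENCODE M21 (GRCm38), matched for 8 of 8 members. The text names all members, genes of the other lists past 1.5-fold with an interval excluding 0 before and after thinning, the 3 genes most like each member of 500 or more UMIs, Kat2a and the markers. Members and lists were chosen with earlier results of these data known. State cut-offs were set after the marker distributions were seen, and the cycle split, depth bins, values without the highest cell, matching within state and leaving out cells with other markers were chosen after seeing the data. Alternatives changed the cell filter, depth, cut-offs and scaling. The values of 1 gene past 1.5-fold and of some markers are not reported here. Scripts were tested on simulated data. Python 3.11.15, numpy 2.4.6, scipy 1.17.1, pandas 2.3.3 and matplotlib 3.10.9 were used.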

Additional observations from a re-analysis of the deposited data

Results flagged for a closer look

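Bcl2a1b differed between the libraries in opposite directions in different maturation states, with a log2 ratio (KO over WT) of 1.61 in late-granulocyte cells and −0.83 in secondary-granule cells, both with intervals that exclude 0. Without the highest cell of each library the values were 1.23 (0.00 to 2.42) and −0.89 (−1.36 to −0.43). Bid likewise had a log2 ratio of 1.16 in late-granulocyte cells and −0.27 in primary-granule cells, and without the highest cell 1.0 (0.08 to 1.89) and −0.43. Against the other cells of the same library, secondary-granule cells were higher in Bcl2a1b in the WT-labelled library, by 0.55, and lower in the KO-labelled library, at −0.52. With 1 library per genotype none of these differences was tested, and late-granulocyte cells of the KO-labelled library numbered 116.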

How the results depend on the processing

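The count of members past 1.5-fold, 1 in all kept cells, was 0 in cells matched on total UMIs, without the 5% of cells with the most UMIs, without cells with markers of other cell types, with the same state weights in both libraries, and with 2-fold in place of 1.5-fold, and 1 under the other 7 alternatives. Bcl2 stayed above 0, from 0.49 to 0.90, under 11 alternatives. In cells matched on total UMIs the pro-survival sum was −0.24 and the pro-apoptotic sum 0.23, and in cells matched within state the latter was 0.30. Of the 8 other apoptosis genes past 1.5-fold, 4 were past it in cells with 1000 or more genes, all among the 8. The count of member and state pairs was 6 to 10 under 6 alternatives. Of the 7 pairs, 5 were kept with marker cut-offs doubled (without Bcl2 and Bcl2a1b in monocyte-marker cells), 6 with cut-offs halved (without Bid) and 4 in cells with 1000 or more genes (without Bid and both pairs of Mcl1). Mcl1 in Apoe-high over other cells of the WT-labelled library was −1.61 in cells with 1000 or more genes, which left 22 cells and 1 UMI. No paired analysis was possible because each genotype gave a lone library, and no replicate could be left out. Depth limits the scarce members most: Bcl2, Bcl2l1 and Bcl2l11 had 62 to 147 UMIs per library, and their levels in late-granulocyte and Apoe-high cells rest on 11 or fewer UMIs each. The cause of each change was not tested.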

Other observations

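The cells under 500 detected genes, 203 in the WT-labelled library and 695 in the KO-labelled library, were outside the main comparisons and entered the alternative with every deposited cell. In them Mcl1 was at 152 CPM (106 to 213) and 105 CPM (82.0 to 133), Bax at 98.6 CPM (61.8 to 149) and 173 CPM (143 to 208), and Bid at 49.3 CPM (24.6 to 88.2) and 60.1 CPM (43.0 to 81.9). Mcl1 thus had the higher level of the pair Mcl1 and Bax in these cells of the WT-labelled library, but the intervals overlapped, so the order is not settled. In those of the KO-labelled library Bax was the higher one, as in kept cells. Bcl2 and Bcl2l11 had 0 UMIs among these cells of the WT-labelled library, where 3 UMIs, the limit taken for a count of 0, would be 13.4 CPM, and 6 and 2 UMIs in those of the KO-labelled library.

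Most cells that carried a member had 1 UMI of it, from 61.6% of Bax-positive cells in each library to 94.4% of Bcl2l1-positive cells in the WT-labelled library. The highest counts in 1 cell were 26 and 27 Bax UMIs, both in primary-granule cells, and Bcl2l1 reached 8 UMIs in 1 low-marker cell of the WT-labelled library, in which no other kept cell had more than 2.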
